A study of Mus musculus with 6 samples.

Results

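Leng8, Akap8l and 8 regulators of RNA splicing (Clk1, Clk2, Clk4, Srsf2, Srsf5, Srsf6, Luc7l3 and Srrm2) were examined in mouse hippocampus after paternal exposure to the insecticide clothianidin (CLO). The 10 genes were matched by symbol in the deposited expression table, each to 1 row of the 55411 gene rows, and all 10 were among the 16129 genes kept by a filter on low counts. They were chosen because Leng8 and Akap8l had lower values in CLO in these same libraries. Differences between CLO and control are therefore given for all 10 as a description, with their standard errors and without p-values. The study compared poly(A)-selected hippocampal RNA of 3 vehicle control samples and 3 samples of the CLO group, whose males were dosed at 50 mg/kg/day, in the C57BL/6N strain. The protocol takes the tissue from offspring mice, so each library is read as RNA of offspring, while the design text speaks of the dosed males. The sources used here name no sex, age, litter or sire, and do not say if samples within a group had different parents. P-values for other genes below therefore set the group difference against the spread between these samples, which may share parents or preparation. If they do, that spread can understate the variation between parents, and the p-values can be too small.

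Splicing removes introns from the primary transcript in the nucleus. SR proteins, named for their arginine and serine repeats, bind exons and guide the splicing machinery, and the CLK kinases phosphorylate SR proteins and release them from nuclear speckles, the compartments where splicing factors collect. Many genes of this system control their own amount by keeping an intron in the transcript or by including an exon with a stop codon, which holds the RNA in the nucleus or sends it to decay. Leng8 is named for its place in the leukocyte receptor cluster of genes. Akap8l encodes a nuclear zinc finger protein related to Akap8, a nuclear anchor of protein kinase A. Luc7l3 is related to yeast Luc7, a component of the U1 particle that recognises the start of an intron. Srrm2 encodes a large scaffold protein of nuclear speckles.

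The control libraries held 25053948 to 26603386 counts in annotated genes and the CLO libraries 19502748 to 21041621, so the CLO libraries were the shallower ones. Neuronal transcripts were abundant in all 6 libraries, with Snap25 at 445 to 611 TPM and the glutamatergic neuron gene Slc17a7 at 557 to 927 TPM. The dentate granule cell marker Prox1 was at 7.38 to 18.6 TPM. Control replicates 1 and 2 stood apart: the summed count of 13 spermatid markers was 413 and 200 there, against 36 to 46 in each other library. The summed level of the 18 neocortex markers found in the table was 1025 and 906 CPM in control replicates 1 and 2, 808 CPM in control replicate 3 and 669 to 813 CPM in CLO. Of these 18 markers 16 had lower fitted values in CLO. The part of either in the differences below was not tested, and the log2 fold change without both libraries is given beside each of the 10 genes.

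Promoter sequences show which letters the genes share around their starts. RefSeq windows of 250 bases before to 50 after each annotated start (GRCm38.p6, another build than the GRCm39 of the deposited table) matched 9 of the 10 genes, all but Clk1, with 11 windows. The letters TGACG or, on the other strand, CGTCA, are the core of the cyclic AMP response element. They were found in 9 of the 11 windows, from 8 of these 9 genes, all but Luc7l3. Of all 32851 windows of the same length 20.8% had them. The full palindrome TGACGTCA, which contains that core on each strand, was found only in Clk4 among the 9 genes and in 1.79% of all windows. The GC box GGGCGG or CCGCCC was found in 8 of the 9 genes, all but Srrm2, and in 35.7% of all windows. The other letters searched, on either strand, were rarer in the 11 windows. The CCAAT box was in 4 of the 11 (37.4% of all windows). The TATA box TATAAA was in 1 of the 11 (13.6%), and the ETS letters CCGGAAGT were in 1 of the 11 (3.89%). The 11 windows had a GC content of 56.0% to 71.7%, above the median of 52.7% over all windows. Shown are the genes with the 3 lowest CLO-to-control ratios and Srsf2, which had the highest, with TGACG and CGTCA in capitals. The first Leng8 window lies at chr7:4136806-4137105 on the plus strand, the Akap8l window at chr17:32350528-32350827 on the minus strand, the first Srrm2 window at chr17:23802937-23803236 on the plus strand and the Srsf2 window at chr11:116853045-116853344 on the minus strand.
Leng8: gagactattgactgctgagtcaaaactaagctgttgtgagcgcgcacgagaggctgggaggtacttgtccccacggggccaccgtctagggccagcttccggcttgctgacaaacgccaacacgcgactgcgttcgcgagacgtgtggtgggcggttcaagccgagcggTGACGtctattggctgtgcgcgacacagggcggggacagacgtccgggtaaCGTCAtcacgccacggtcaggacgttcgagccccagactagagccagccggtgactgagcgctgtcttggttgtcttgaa
Akap8l: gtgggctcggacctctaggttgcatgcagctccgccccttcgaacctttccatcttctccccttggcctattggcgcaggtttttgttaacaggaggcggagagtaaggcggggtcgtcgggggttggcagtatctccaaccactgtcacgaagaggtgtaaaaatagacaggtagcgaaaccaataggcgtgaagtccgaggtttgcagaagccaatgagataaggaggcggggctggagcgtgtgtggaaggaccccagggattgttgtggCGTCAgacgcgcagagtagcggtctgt
Srrm2: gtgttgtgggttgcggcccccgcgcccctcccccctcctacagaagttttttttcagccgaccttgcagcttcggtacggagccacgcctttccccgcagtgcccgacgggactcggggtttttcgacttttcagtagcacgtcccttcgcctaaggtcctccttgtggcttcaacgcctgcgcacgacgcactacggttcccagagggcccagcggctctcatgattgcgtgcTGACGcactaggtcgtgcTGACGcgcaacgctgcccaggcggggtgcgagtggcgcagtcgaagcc
Srsf2: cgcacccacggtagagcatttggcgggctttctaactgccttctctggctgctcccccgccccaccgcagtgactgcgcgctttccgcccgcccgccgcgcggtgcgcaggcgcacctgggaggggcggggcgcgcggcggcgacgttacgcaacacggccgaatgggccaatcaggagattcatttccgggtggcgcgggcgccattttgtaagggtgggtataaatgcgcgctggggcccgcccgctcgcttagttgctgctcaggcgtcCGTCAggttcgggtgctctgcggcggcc
The core letters began at bases 170 and 221 of the first Leng8 window and at bases 235 and 253 of the first Srrm2 window. In Akap8l they began at base 274 and in Srsf2 at base 273, which lie after the annotated start, as does base 253 in the first Srrm2 window. The second windows, of other annotated starts, are not shown. That of Leng8 held no core letters. That of Srrm2, at chr17:23802975-23803274, overlaps the first Srrm2 window and holds the same 2 sites. They began at its bases 197 and 215, both before its start. The 9 of 11 windows above therefore count these sites in both Srrm2 windows. A match of letters is a description and not a binding site.

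Leng8 lies on chromosome 7 from 4140038 to 4151176 on the plus strand (GRCm39). Its level, as read counts scaled by TMM library factors to counts per 1000000 reads (CPM), was 14.7, 16.4 and 12.8 CPM in control replicates 1, 2 and 3, and 9.40, 7.40 and 7.05 CPM in CLO replicates 1, 2 and 3. All 3 CLO libraries were below all 3 control libraries. The means were 14.6 ± 1.77 CPM in control and 7.95 ± 1.27 CPM in CLO (SD, n = 3), a log2 fold change of CLO over control of -0.88 ± 0.18 (SE). In bulk tissue, fewer cells that express a gene and less RNA per cell cannot be told apart. These values rest on 334 to 438 reads per control library and 138 to 191 per CLO library. Without control replicates 1 and 2 the log2 fold change of Leng8 was -0.69, against the lone control replicate 3.

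Akap8l, on chromosome 17 from 32540398 to 32569581 on the minus strand, had few reads. It had 54, 45 and 33 reads in control replicates 1, 2 and 3, and 11, 5 and 10 reads in CLO replicates 1, 2 and 3. These are 2.05, 1.68 and 1.27 CPM in control and 0.541, 0.245 and 0.511 CPM in CLO. Every CLO library was below every control library. The exact Poisson 95% intervals, which cover counting error only, met on the CPM scale: that of control replicate 3 reached down to 0.873 CPM and that of CLO replicate 1 up to 0.969 CPM. The mean went from 1.67 ± 0.391 CPM to 0.432 ± 0.163 CPM (SD, n = 3). The log2 fold change was -1.94 ± 0.38 (SE), and it was -1.54 without control replicates 1 and 2. Its paralog Akap8 was at 19.3 ± 1.51 CPM in control and 15.4 ± 3.34 CPM in CLO, with overlapping libraries (log2 fold change -0.33 ± 0.18; adjusted p = 0.433 by the edgeR quasi-likelihood test, Benjamini-Hochberg adjusted over all genes tested).

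Srrm2 (chromosome 17, 24009506 to 24043715, plus strand) had the third largest difference. It was at 112, 165 and 119 CPM in control replicates 1, 2 and 3 and at 91.5, 73.0 and 52.9 CPM in CLO replicates 1, 2 and 3. The groups did not overlap, although CLO replicate 1 came near to control replicate 1. The means were 132 ± 28.7 and 72.5 ± 19.3 CPM, a log2 fold change of -0.87 ± 0.21 (SE). It was -0.56 after each library's trend of level with gene length had been removed; at 13715 bases Srrm2 has the greatest deposited length of the 10. Without control replicates 1 and 2 it was -0.72. The related speckle gene Srrm1 was at 46.5 ± 4.54 and 35.7 ± 5.86 CPM (log2 fold change -0.38 ± 0.16; edgeR adjusted p = 0.355). Srrm4, a neuronal splicing regulator, was at 26.2 ± 5.16 and 15.6 ± 5.10 CPM (log2 fold change -0.75 ± 0.23; edgeR adjusted p = 0.270). In both, every CLO library was below every control library, and neither passed the threshold.

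**Figure D1:**
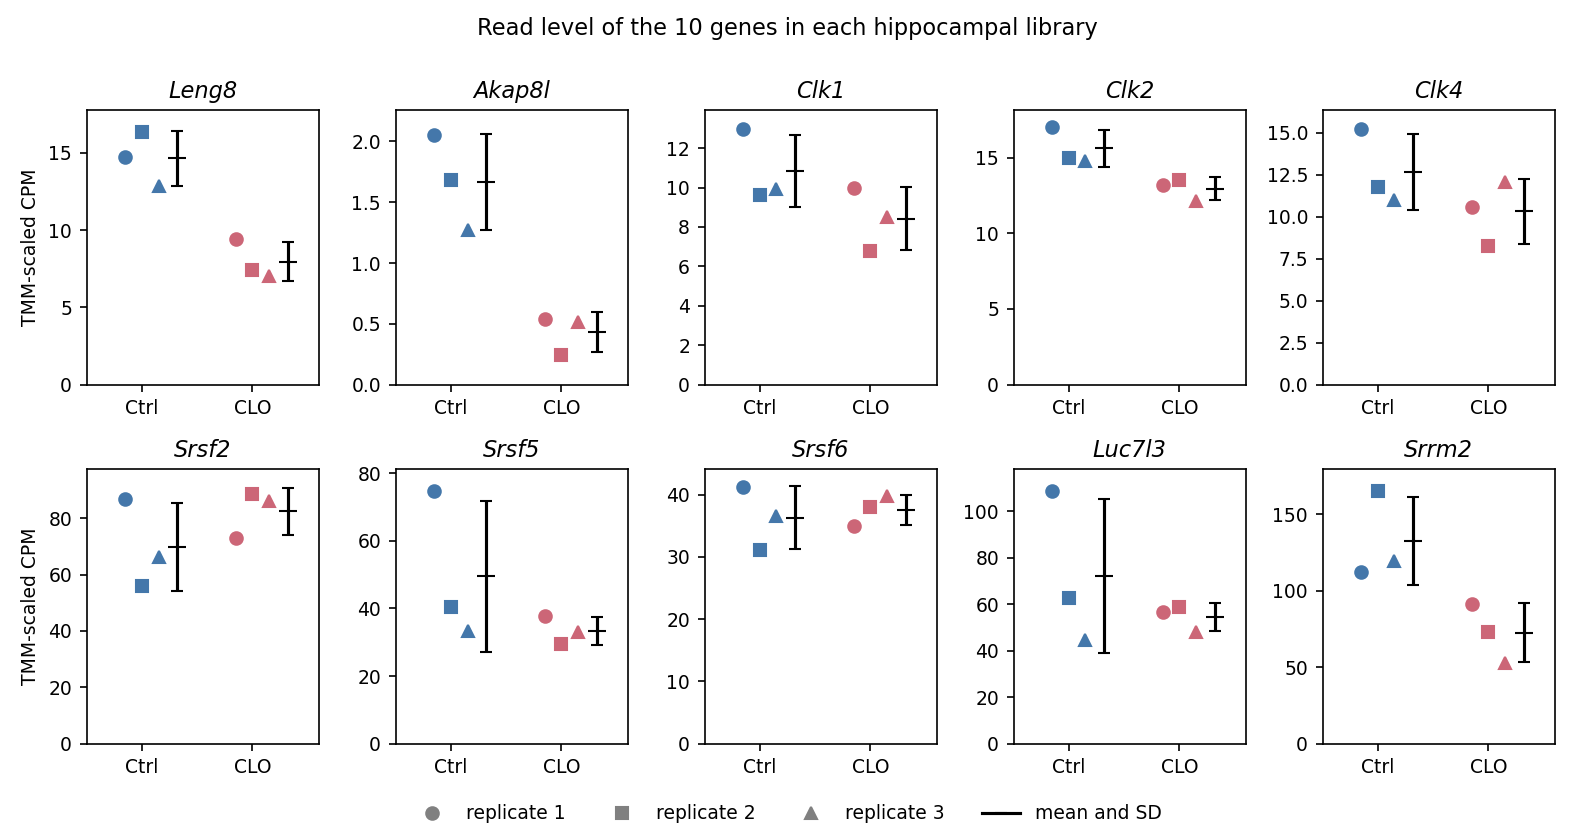
Level of the 10 genes in TMM-scaled CPM (vertical axes, each from 0) in the 3 control and 3 CLO libraries, with the mean and SD beside the points. Leng8, Akap8l, Srrm2 and Clk2 have all CLO points below all control points, whereas control replicate 1 stands above the other controls in Srsf5 (74.9 CPM) and Luc7l3 (109 CPM).

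The 3 CLK kinase genes differed less. Clk2 (chromosome 3, 89072102 to 89084228, plus strand) was at 17.0, 15.0 and 14.8 CPM in control replicates 1, 2 and 3 and at 13.2, 13.5 and 12.1 CPM in CLO replicates 1, 2 and 3. Its groups did not overlap, with means of 15.6 ± 1.23 and 12.9 ± 0.744 CPM and a log2 fold change of -0.27 ± 0.16 (SE), which was -0.19 without control replicates 1 and 2. Clk1 (chromosome 1, 58449348 to 58463225, minus strand) was at 12.9, 9.64 and 9.91 CPM in control and 9.99, 6.76 and 8.53 CPM in CLO, in the same replicate order. CLO replicate 1 lay above control replicates 2 and 3, so the groups overlapped. The log2 fold change of Clk1 was -0.36 ± 0.20 (SE), and -0.22 when control replicate 1, CLO replicate 2 or the length trend was removed and -0.23 without control replicates 1 and 2. Clk4 (chromosome 11, 51152557 to 51172593, plus strand) was at 15.2, 11.8 and 11.0 CPM in control and 10.6, 8.28 and 12.1 CPM in CLO. CLO replicate 3 exceeded control replicates 2 and 3, and the log2 fold change of -0.30 ± 0.20 (SE) became -0.15 when control replicate 1 was dropped, -0.16 when CLO replicate 2 was, and -0.09 when control replicates 1 and 2 were. The fourth CLK gene, Clk3, was at 27.8 ± 4.56 and 29.2 ± 3.73 CPM, a log2 fold change of 0.07 ± 0.17 (edgeR adjusted p = 0.869).

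The SR protein genes went different ways. Srsf5 (chromosome 12, 80992278 to 80997281, plus strand) was at 74.9, 40.4 and 33.3 CPM in control replicates 1, 2 and 3 and at 37.7, 29.4 and 33.1 CPM in CLO replicates 1, 2 and 3. Only control replicates 1 and 2 lay above all CLO libraries, and control replicate 1 stood far above the rest. The log2 fold change was -0.57 ± 0.26 (SE) with all libraries, -0.14 ± 0.16 without control replicate 1 and 0.01 without control replicates 1 and 2.

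Srsf2 (chromosome 11, 116740727 to 116743920, minus strand), the highest of the 10 in TPM, was at 86.8, 56.1 and 66.1 CPM in control and 72.8, 88.4 and 86.0 CPM in CLO. Control replicate 1 lay within the CLO range, so the groups overlapped. The log2 fold change was 0.24 ± 0.18 (SE), 0.43 ± 0.15 without control replicate 1 and 0.12 ± 0.19 without control replicate 2. Dropping control replicates 1 and 2 gave 0.32. Srsf6 (chromosome 2, 162773448 to 162779041, plus strand) was at 41.3, 31.1 and 36.6 CPM in control and 34.99, 38.1 and 39.7 CPM in CLO. The CLO libraries fell within the control range, and the log2 fold change was 0.05 ± 0.15 (SE). It was -0.05 without control replicate 2, 0.15 without control replicate 1 and 0.04 without both. Of the other SR protein genes, Srsf1 stood at 62.6 ± 2.51 and 61.7 ± 1.17 CPM (log2 fold change -0.02 ± 0.13) and Srsf3 at 108 ± 13.7 and 124 ± 19.1 CPM (0.21 ± 0.16). Srsf4, Srsf7, Srsf9, Srsf10, Srsf11 and Srsf12 had log2 fold changes from -0.17 (Srsf12) to 0.13 (Srsf9), and none of these 8 genes passed, with edgeR adjusted p from 0.568 (Srsf3) to 0.949 (Srsf1).

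Luc7l3 (chromosome 11, 94178716 to 94212814, minus strand) varied most within the control group. It was at 109, 62.7 and 44.5 CPM in control replicates 1, 2 and 3, a 2.45-fold range, and at 56.8, 58.9 and 47.9 CPM in CLO replicates 1, 2 and 3, a 1.23-fold range. All 3 CLO libraries lay between control replicates 2 and 3. The log2 fold change was -0.40 ± 0.26 (SE) with all libraries, 0.02 ± 0.17 without control replicate 1, -0.65 ± 0.22 without control replicate 3 and 0.29 without control replicates 1 and 2. Its relatives Luc7l and Luc7l2 were at 59.4 ± 5.48 and 57.7 ± 2.00 CPM, and at 52.4 ± 6.97 and 44.0 ± 11.5 CPM, with edgeR adjusted p of 0.911 and 0.564.

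Over the 10 genes, 8 had a lower and 2 a higher fitted value in CLO, their median log2 fold change being -0.38, and 51.8% of all genes tested had a lower value (median -0.01). In 4 of the 10 (Leng8, Akap8l, Srrm2 and Clk2) all CLO libraries were below all control libraries, which held for 6.7% of all genes tested. In 0 of the 10 were all CLO libraries above all controls (7.84% of all genes tested). The rule that chose the genes used this contrast, so nothing is read from these counts. The median was -0.18 without control replicate 1, -0.53 without control replicate 3, -0.25 with the length trend removed and -0.14 without control replicates 1 and 2. Leng8, Akap8l, Srrm2, Clk1, Clk2 and Clk4 stayed below 0 and Srsf2 above 0 in all 14 alternative settings, while Srsf5, Luc7l3 and Srsf6 changed sign in at least 1. All settings reuse the libraries on which Leng8 and Akap8l were chosen, so a kept sign is no further support. For the genes without overlap, leaving out a library could hardly turn the sign.

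**Figure D2:**
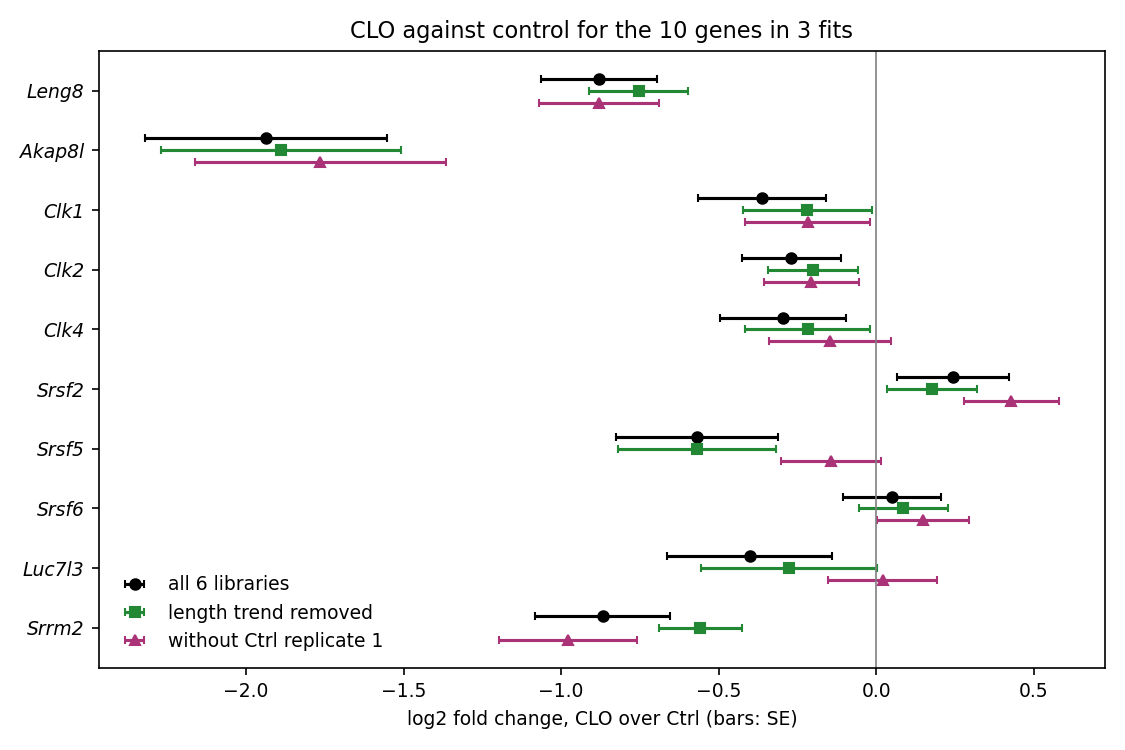
Log2 fold change of CLO over control (horizontal axis, bars are SE) for each of the 10 genes with all 6 libraries, with the length trend removed and without control replicate 1. Leng8 (-0.88), Akap8l (-1.94) and Srrm2 (-0.87) lie farthest below 0, and without control replicate 1 Srsf5 moves to -0.14 and Luc7l3 to 0.02.

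Within the control group the genes tended to be highest in the same library. Control replicate 1 held the highest control value for 8 of the 10 genes, all but Leng8 and Srrm2, and for 40.1% of all genes tested. The median deviation of the 10 genes from their control mean was 0.27 log2 units in control replicate 1, where that of all genes tested was 0.01. This comparison does not use the CLO libraries. It is still not independent of the choice of genes, because that choice used the control values of Leng8 and Akap8l. The genes differed in this: Luc7l3 and Srsf5 stood 0.70 and 0.69 log2 units above their control mean in control replicate 1, Clk1 and Clk4 0.27 and 0.28, and Leng8 0.02, while Srrm2 stood 0.21 below its mean. Cdk11b, a kinase gene of the splicing system outside the 10, had the same high library. It was at 98.7, 66.9 and 44.7 CPM in control replicates 1, 2 and 3, and 69.1, 62.2 and 41.7 CPM in CLO. Other genes did not share this. Ppp1cc and Ppp1r8, which with Cdk11b had the highest TPM of their list, were highest in control replicate 3. Ppp1cc was at 174, 139 and 185 CPM and Ppp1r8 at 33.3, 27.2 and 38.8 CPM in control replicates 1, 2 and 3. The summed oligodendrocyte markers (8 genes) were also highest in control replicate 1, at 4496 CPM against 3923 and 2914 CPM in the other controls and 2487 to 3861 CPM in CLO, with 8 of 8 markers lower in CLO. The summed level of the 10 neuronal markers was lowest there among the controls, at 6961 CPM against 9045 and 9333 CPM. These markers did not move together. By TPM, Slc17a7, Camk2a, Syt1 and Prox1 were lowest in control replicate 1 among the controls. Snap25, Rbfox3, Tubb3 and Zbtb20 were highest there, and Neurod6 and Wfs1 lay between. None of these markers was at 0 in all libraries, and their part in the values of the 10 genes was not tested.

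**Figure D3:**
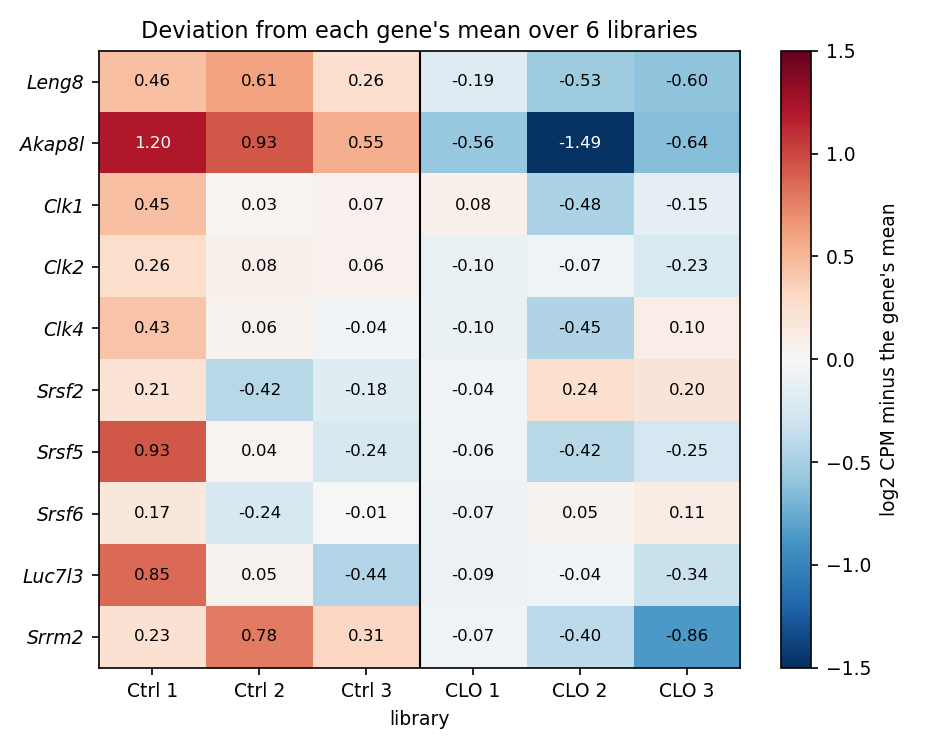
Deviation of log2 CPM from each gene's own mean over the 6 libraries (colour and printed value), with the genes in rows and the libraries in columns. Akap8l (1.20), Srsf5 (0.93) and Luc7l3 (0.85) are highest in control replicate 1, Srrm2 (0.78) and Leng8 (0.61) in control replicate 2, and Srsf2 and Srsf6 have their lowest values in control replicate 2.

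Some profiles ran close together. By the root mean square difference of log2 CPM profiles over the 6 libraries, each centred on its own mean, the closest of the 45 pairs among the 10 genes were Clk1 with Clk4 (0.13), Srsf2 with Srsf6 (0.13), Leng8 with Srrm2 (0.18) and Srsf5 with Luc7l3 (0.18), followed without a break by Clk2 with Srsf6 (0.20) and with Clk1 (0.20). By this measure genes that vary little are close even where their patterns differ. Clk2 and Srsf6, for example, had log2 fold changes of -0.27 and 0.05. Among all genes tested Srrm2 was the 100th nearest to Leng8, and Clk1, the next of the 10, the 1886th. The named genes with a mean of at least 1 CPM nearest to Leng8 were Chml (0.06), Fli1 (0.08), Sgpp2 (0.08), Ppfibp2 (0.09) and Garnl3 (0.10). Garnl3, for example, was at 30.8, 32.2 and 22.5 CPM in control and 19.0, 13.0 and 14.3 CPM in CLO.

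Nearest to Akap8l by the same measure and limits were Meg3 (0.31), mt-Atp6 (0.33), Snhg11 (0.34), Miat (0.41) and Acvr2b (0.44). The mt-Atp6 row had few reads, at 2.28, 1.76 and 1.65 CPM in control and 0.837, 0.490 and 1.07 CPM in CLO. Nothing is read from it about mitochondrial RNA. Meg3, Snhg11 and Miat are long noncoding RNA genes. Snhg11 was at 78.5, 41.9 and 26.0 CPM in control replicates 1, 2 and 3 and at 22.3, 11.2 and 19.1 CPM in CLO replicates 1, 2 and 3. Miat was at 15.1, 8.22 and 5.19 CPM in control and 4.13, 2.55 and 2.35 CPM in CLO. In both genes control replicate 1 was highest, as for Akap8l, and all CLO libraries were below all controls. Leng8 was the 72nd nearest gene to Akap8l (0.55). With 6 libraries in 2 groups, all these likenesses include the difference between the groups.

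Per length, the genes spanned a wide range of levels. In the deposited TPM (reads scaled to gene length and library total) the control means were 55.9 ± 14.8 for Srsf2, 29.8 ± 14.8 for Srsf5, 22.8 ± 4.96 for Srrm2, 22.2 ± 11.2 for Luc7l3 and 17.9 ± 3.06 for Srsf6 (SD, n = 3). The libraries of each of these overlapped those of its neighbour in the order. Clk2 followed at 6.67 ± 0.833 TPM, below all libraries of Srsf6, then Clk4 at 5.20 ± 1.16 and Leng8 at 4.79 ± 0.714, each overlapping the one before. Clk1 at 3.16 ± 0.676 TPM was below Leng8 in every control library, and Akap8l was last at 0.783 ± 0.220 TPM. By CLO means Srsf2 and Srsf5 were followed by Srsf6 (16.9 ± 1.15 TPM), Luc7l3 (15.3 ± 3.20) and Srrm2 (11.8 ± 4.65), in that order. The CLO libraries of Srsf5, Srsf6, Luc7l3 and Srrm2 each overlapped those of the next. The remaining places by mean were as in control. Leng8 and Clk1 overlapped in CLO, however, at 3.24, 2.13 and 1.88 against 3.07, 1.74 and 2.03 TPM in CLO replicates 1, 2 and 3.

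These levels depend on what was counted as the gene. The deposited length exceeded the longest annotated protein-coding transcript in each of the 10 genes, from 1.36-fold in Srsf6 to 4.53-fold in Clk1 (8132 against 1796 bases). The median ratio was 1.99 in the 10 genes, 1.63 in their relatives and 1.34 over the protein-coding genes tested. Each gene also has transcripts annotated with a retained intron (GENCODE vM21, matched by gene identifier), from 1 in Srsf2 and Srsf6 to 7 in Clk1 and Clk4, with 3 in Leng8 and 5 in Akap8l. All 10 genes had at least 1 such transcript, as did 56.4% of the 13718 protein-coding genes tested. In addition 9 of the 10, all but Leng8, had a transcript annotated for nonsense-mediated decay, as did 27.1% of those genes. Among the relatives of the 10, 13 of 17 had a retained-intron and 14 of 17 a decay transcript. A count per gene adds spliced and intron-containing RNA together, so the values above do not separate them. On the same strand, Clk4 overlaps a 7SK gene and Srrm2 overlaps Mir5125. On the opposite strand Leng8 overlaps Leng9, Clk4 overlaps BC049762, Srsf2 overlaps Mettl23 and Mfsd11, and Srrm2 overlaps Gm49911 and Elob. The library kit kept the strand, but whether the counting used it is not given in the sources used here.

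The wider system of RNA processing had no gene past the threshold by edgeR. By its quasi-likelihood test 0 of 16129 genes passed (0%), against 2167 (13.4%) at an unadjusted p under 0.05, and 204 (1.26%) passed by DESeq2. Of 206 genes tested on 8 lists of relatives, kinases, speckle, spliceosome, hnRNP, neuronal splicing, decay and export genes, 121 had lower and 85 higher values in CLO, and their median log2 fold change was -0.06. Of these 206, 0 passed by edgeR, 17 were lower and 1 higher at an unadjusted p under 0.05 (7.26% and 6.18% of all genes tested), and 1 passed by DESeq2. That gene was Hipk2, a nuclear kinase gene chosen here after its value was seen, at 19.9 ± 9.20 CPM in control and 7.77 ± 3.78 CPM in CLO, a log2 fold change of -1.35 (edgeR adjusted p = 0.225; DESeq2 adjusted p = 0.0124). The lists were chosen with earlier results of these data known.

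By role, the list medians ran from -0.25 to 0.09, against -0.01 over all genes tested, of which 51.8% had lower values in CLO. The list of kinases and phosphatase partners of SR proteins had 10 of 15 genes lower (median log2 fold change -0.25). It was drawn broadly, and not all its genes are known to act on SR proteins. In it the phosphatase catalytic subunit gene Ppp1cc was at 166 ± 24.3 and 220 ± 26.7 CPM with no overlap (0.41 ± 0.16; edgeR adjusted p = 0.334). Neuronal splicing regulators had 22 of 27 lower (median -0.14), among them Celf4 at 777 ± 134 and 667 ± 27.3 CPM (edgeR adjusted p = 0.529). The RNA-binding protein gene Rbfox3, a marker of neurons, was at 308 ± 60.6 and 294 ± 12.05 CPM. Speckle and exon junction genes had 21 of 31 lower (median -0.09), hnRNP genes 20 of 31 (median -0.11), and decay and exosome genes 14 of 24 (median -0.10), with the decay helicase gene Upf1 at 73.4 ± 5.52 and 61.7 ± 9.14 CPM (edgeR adjusted p = 0.473). Core spliceosome genes had 17 of 44 lower and 27 higher (median 0.09), with Snrpb at 70.0 ± 18.8 and 86.0 ± 9.25 CPM (edgeR adjusted p = 0.487). Export genes had 9 of 19 lower (median 0.09), with Chtop at 123 ± 6.38 and 122 ± 9.47 CPM (log2 fold change -0.02 ± 0.14; edgeR adjusted p = 0.961). The 17 relatives had a median of -0.04, with 10 lower and 7 higher, and none passed. With the length trend removed the kinase median was -0.04, the export median 0.02, and those of relatives, neuronal and speckle genes 0.05, 0.01 and 0.02, so these turned or nearly vanished. Without control replicate 1 the medians of relatives, speckle and hnRNP genes were 0.01, 0.01 and 0.04.

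**Figure D4:**
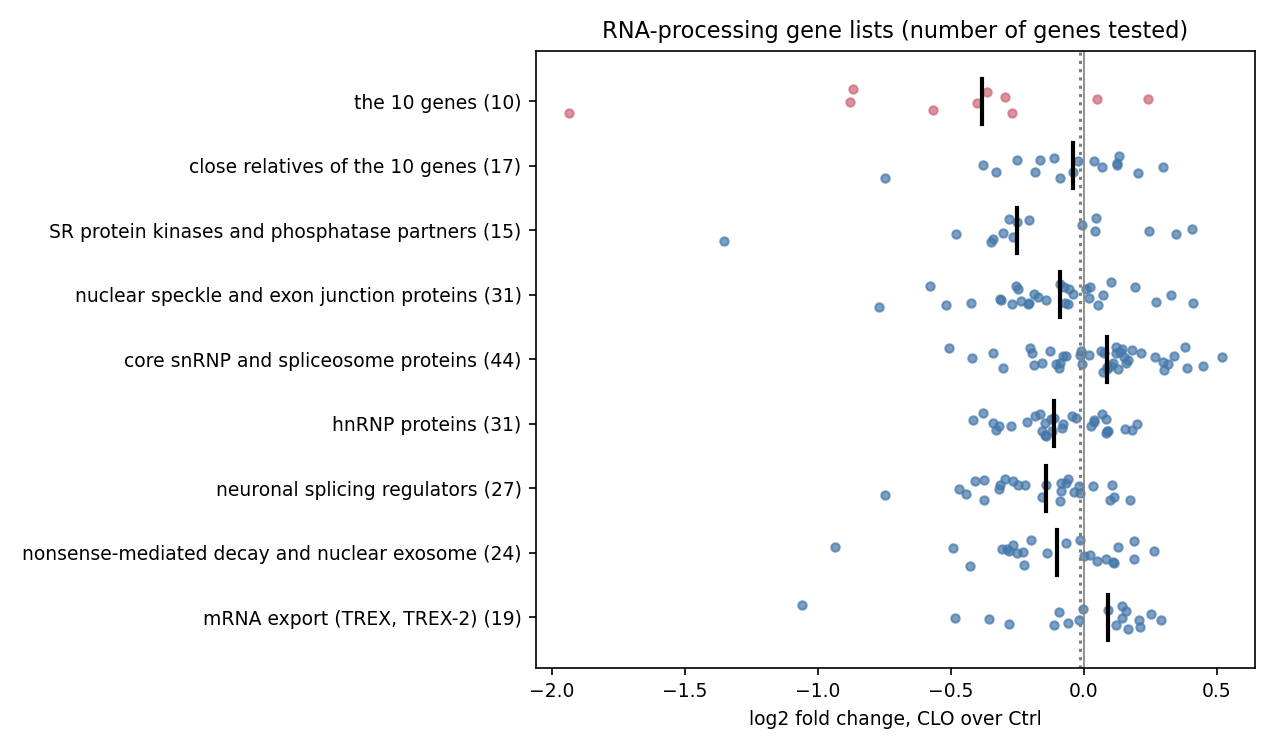
Log2 fold change of CLO over control (horizontal axis) for each gene tested on 8 RNA-processing lists and for the 10 genes, with a bar at each list's median and a dotted line at the median of all genes tested (-0.01). List medians lie between -0.25 (kinases) and 0.09 (core spliceosome and export), and the 10 genes, chosen on this contrast, have a median of -0.38.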

How the data were processed

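RNA of 3 vehicle control and 3 CLO samples was measured by RNA-seq. The deposited count table holds whole-number counts per gene without normalization, as its values show. In the deposited TPM table the authors' values equal these counts divided by the deposited gene length and scaled to 1000000 per library. Tools listed, without role or order, per the submitters' processing notes were HISAT2 2.2.0 and cutadapt 2.9, beside featureCounts 2.6.0 and the build GRCm39. The handling of strand and of reads mapping to several places is not given in the sources used here.

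The 1103 rows of loci without gene annotation (0.640% to 0.780% of counts) were left out. Genes were kept by filterByExpr and tested with edgeR 4.0.16 in R 4.3.3 (TMM factors, robust quasi-likelihood test, two-sided, no block, Benjamini-Hochberg adjustment, threshold 0.05). The SE is the log2 fold change divided by the root of the F statistic. Log2 CPM used a prior count of 2. Alternatives used DESeq2 1.42.0, limma-voom (limma 3.58.1), upper-quartile factors, no filter, unannotated loci, removal of the length trend, a replicate block and fewer libraries. The scripts were tested on simulated data. The 10 genes and the lists were chosen with earlier results of these data known. Beside the 10, the genes named come from the 17 relatives or the 3 of each list with the highest TPM, and the 5 nearest to Leng8 and to Akap8l without model names and pseudogenes. Hipk2, Nktr and Smg1 were named after their values were seen, because an alternative called them. No pair of libraries was identical. Sequences and GENCODE annotation were matched by symbol or gene identifier, and 99.8% of tested genes matched GENCODE vM21.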

Additional observations from a re-analysis of the deposited data

How the results depend on the processing

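Between settings the number of genes past the threshold went from 0 to 204 by DESeq2 (140 higher, 64 lower) and 699 with no filter on low counts (235 higher, 464 lower), and on the 8 lists from 0 to 1 (Hipk2) and 4 (Hipk2, Nktr, Smg1 and Srrm4). It was 0 by limma-voom, with upper-quartile factors, with unannotated loci and with the length trend removed. With 1 library left out it ran from 0 to 20 over all genes (2 without control replicate 1, 20 without control replicate 3) and was 0 on the lists. The median log2 fold change of the 10 genes ran from -0.53 to -0.18 with 1 library left out and was -0.14 without control replicates 1 and 2, a fit with 1 control from which only values were taken. Without both, Srsf5 turned to 0.00883, Luc7l3 to 0.295 and the medians of speckle and hnRNP genes to 0.0915 and 0.0228. With the length trend removed the medians of relatives, neuronal and speckle genes turned to 0.0514, 0.0126 and 0.0176, and those of kinases and export genes shrank to -0.0435 and 0.0229. With 1 library left out the medians crossed 0 for relatives (-0.0445 to 0.00623, turned without control replicate 1), speckle genes (-0.177 to 0.0121, turned without control replicate 1), hnRNP genes (-0.186 to 0.0436, turned without control replicate 1 and, at 0.00400, without CLO replicate 3) and export genes (-0.000602 to 0.156, turned without CLO replicate 3). The cause was not tested. The labels do not tie the replicate numbers of the groups together. Deviations of same-numbered libraries correlated at -0.16, -0.09 and 0.28 across genes, which are not independent replicates. Those of unlike-numbered libraries ran from -0.38 (control replicate 2 with CLO replicate 3) to 0.43 (control replicate 2 with CLO replicate 1). Deviations within a group sum to 0 in each gene, so these correlations cannot show whether samples were paired. With the number as a block 0 genes passed and the median of the 10 genes was -0.34. Depth limits Akap8l most, which had 5 to 11 reads in each CLO library.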
